A study of Mus musculus with 12 samples.

Results

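The genes described are 55 genes of the mitotic machinery, the proteins that build the spindle, attach chromosomes to it, check that attachment and divide the cell. They were taken by name, as the rows of the raw gene count table with those symbols, from a list drawn up with earlier results of these data known. All 55 were in the table of 13780 genes, each on 1 row, and all were among the 13767 genes tested. The counts came from CD8+ T cells of the spleens of young adult wild type C57BL/6J mice, selected with magnetic beads. The study asked how the lactate anion, given as a salt that leaves the pH unchanged, alters these cells during activation. Naïve cells (4 libraries) were frozen directly after purification. Media cells (4 libraries) spent 72 h in plain media with recombinant IL-2 and beads that carry anti-CD3 and anti-CD28, and lactate cells (4 libraries) were treated alike with 40 mM sodium lactate added. Plain media and not sodium chloride was the control, so sodium and osmolality differed between the activated groups together with lactate. The same donor tags recur in the labels of libraries numbered 1 to 9 and 16 to 26, and were read as different mice in each range. On that reading the activated libraries came from 5 donor mice, of which 3 are represented in both groups.

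A cell enters mitosis when the kinase CDK1, bound to a B-type cyclin, is activated. Condensin and topoisomerase II then compact and untangle the chromosomes, kinesin motors and microtubule regulators assemble the spindle, and kinetochores on the centromeres capture its fibres, while the spindle checkpoint holds the anaphase-promoting complex until all chromosomes are attached. The chromosomal passenger complex and the central spindle then direct the cut between the daughter cells. Resting naïve T cells keep these genes low. In cycling cells the B-MYB and FOXM1 factors drive them together with the MuvB core, which in resting cells belongs to the repressive DREAM complex and which reads a short promoter element, the cell cycle genes homology region (CHR). NF-Y binds the CCAAT box in many of the same promoters.

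The promoters are shown first because many of them share these elements. RefSeq promoter windows of GRCm38.p6, from 250 bases before to 50 bases after an annotated start, were found for 46 of the 55 genes (51 windows). No window was at hand for Incenp, Ccna2, Foxm1, Smc4, Aurkb, Tpx2, Kif20a, Spc24 and Cdc25c. The 7 stretches below, of 120 bases each, run 5′ to 3′ on the strand of the gene and were chosen to show both elements across entry, checkpoint, motor and chromosome structure genes. Capitals mark the CHR core TTTGAA or its variant TTTAAA, the CCAAT box and the same letters where they stand on the other strand, which reads TTCAAA for the core. The reverse of the box reads ATTGG. Cdk1, Cdc20, Top2a and Kif11 hold both elements in the stretch, Mki67 and Ncapg hold the CHR core alone there, and Bub1 is shown as a window with CCAAT boxes and no TTTGAA.
Cdk1, chr10:69352913-69353032, minus strand: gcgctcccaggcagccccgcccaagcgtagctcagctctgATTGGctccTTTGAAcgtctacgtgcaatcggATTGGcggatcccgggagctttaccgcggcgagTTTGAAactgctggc
Cdc20, chr4:118437344-118437463, minus strand: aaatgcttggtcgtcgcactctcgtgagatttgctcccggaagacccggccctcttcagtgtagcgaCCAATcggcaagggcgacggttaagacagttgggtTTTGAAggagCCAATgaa
Top2a, chr11:99024190-99024309, minus strand: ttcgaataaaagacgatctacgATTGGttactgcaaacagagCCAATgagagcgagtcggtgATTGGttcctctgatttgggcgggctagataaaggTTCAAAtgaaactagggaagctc
Mki67, chr7:135716380-135716499, minus strand: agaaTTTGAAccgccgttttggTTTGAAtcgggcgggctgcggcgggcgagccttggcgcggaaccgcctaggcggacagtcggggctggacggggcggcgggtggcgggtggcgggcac
Kif11, chr19:37376262-37376381, plus strand: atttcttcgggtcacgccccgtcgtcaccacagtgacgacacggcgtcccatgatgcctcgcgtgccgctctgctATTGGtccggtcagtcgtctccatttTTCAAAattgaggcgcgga
Ncapg, chr5:45669805-45669924, plus strand: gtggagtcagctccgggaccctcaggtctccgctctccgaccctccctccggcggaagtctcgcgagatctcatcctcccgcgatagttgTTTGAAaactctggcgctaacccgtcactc
Bub1, chr2:127831860-127831979, minus strand: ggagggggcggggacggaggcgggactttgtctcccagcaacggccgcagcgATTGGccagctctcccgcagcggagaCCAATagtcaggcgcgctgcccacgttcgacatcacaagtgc

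On either strand TTTGAA was present in 38 of the 51 windows (74.5%), against 17.9% of all 32851 windows of the table and 12.4% of the windows of genes in the count table. TTTGAA was held by 38.9% of the windows of 49 other mitotic genes. CCAAT was present in 78.4% of the windows of the mitotic genes, 59.3% of those of the other mitotic genes, 61.5% of those of DNA replication genes and 37.4% of all windows. Windows with both made up 62.7%, against 6.95% of all windows. The variant TTTAAA, which is searched for as its own motif and is the same on both strands, was found in 19.6% against 13.2%. Of 50 matches of TTTGAA, 36 lay within 50 bases of the start, and of 82 matches of CCAAT, 63 lay in the 150 bases before it. Overlapping windows of Ect2, Prc1 and Bub3 count the same sites again, and positions were not computed over all windows. The E2F form TTTCGCGC was found in 1.96% of the windows of the mitotic genes and 23.1% of those of DNA replication genes, which held TTTGAA in 15.4%. A match is a run of letters and not a measured binding site, and no binding was measured here.

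**Figure D1:**
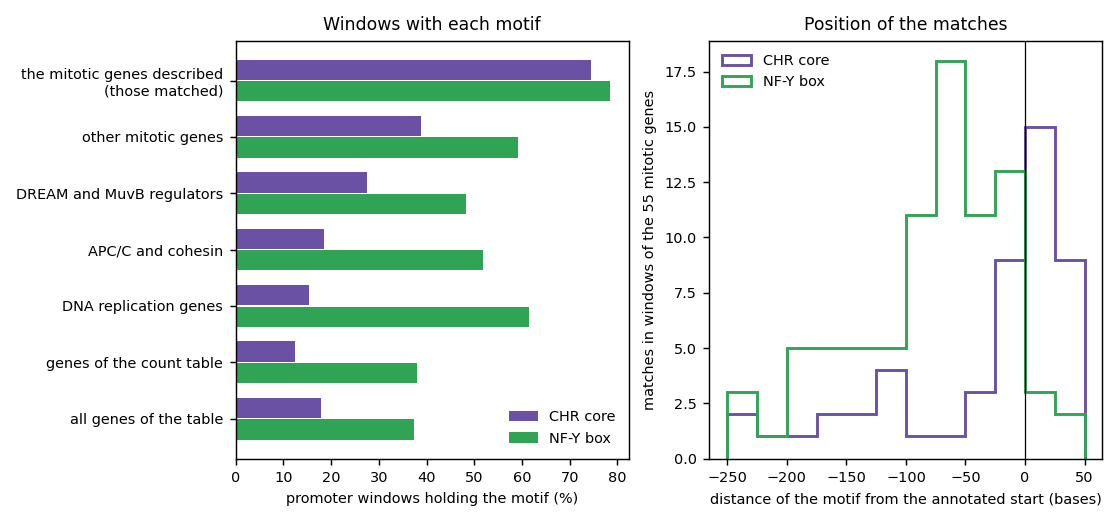
Left, the percentage of promoter windows that hold the CHR core or the NF-Y box in each gene list; right, the number of matches in the windows of the mitotic genes by distance in bases from the annotated start. Both elements were more frequent in the mitotic genes (74.5% and 78.4%) than over all windows (17.9% and 37.4%). Of 50 matches of the CHR core, 36 lay within 50 bases of the start, a share not computed over all windows.

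Total counts per library ran from 14726904 to 21478137. Levels are given as CPM (counts per 1000000 counts of the library, scaled by TMM). Summed over 7 T cell markers, among them Cd8a and Cd8b1, they ran from 2407 to 5442 CPM. The low end was naïve replicate 4 (4063 to 5442 in the other naïve libraries), which was the lowest naïve library for 44 of the 55 mitotic genes. Naïve replicate 2 stood apart at the other end: it was the highest of the 4 naïve libraries for 50 of the 55, at a median of 2.19 times the mean of the other 3, where the median over all genes was 1.00. In the same library the summed markers of red cells (4 of 5 in the table) were 3369 CPM, against 84.1 to 933 in the other naïve libraries and at most 1.90 in the activated ones. Its summed B cell markers (7 of 7) were 5161 CPM, against 2250 to 3598 in the other naïve and 248 to 699 in the activated libraries. Myeloid and dendritic markers (10 of 10) summed to 626 to 1755 CPM in naïve and 7.89 to 18.9 CPM in activated libraries, with S100a8 and S100a9 at 0 in all 8 activated libraries. The part of these cells, or of the lower T cell markers in naïve replicate 4, in the levels of the mitotic genes was not tested. Fewer cycling cells and less RNA per cycling cell cannot be told apart in bulk RNA.

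Nearly all of the mitotic genes rose on activation. From naïve to media, 54 of the 55 rose in edgeR's quasi-likelihood test (Benjamini-Hochberg adjusted p of at most 0.01 over all genes) and none fell (also 0 at an unadjusted p under 0.05), where 28.5% of all genes were called higher and 29.0% lower. The median log2 fold change of the members was 3.82, or 14.1-fold, and -0.029 over all genes tested. For those 54 genes every media library lay above every naïve library, where 30.7% of all genes did so and 30.5% lay below without overlap. From naïve to lactate 54 also rose and none fell, with a median of 3.60 (12.1-fold), where 33.0% of all genes were called higher and 32.0% lower. Together the 55 genes took 1826 ± 307 CPM in naïve, 12508 ± 997 in media and 9832 ± 567 in lactate libraries (SD, n = 4). These comparisons share the naïve libraries. The single exception was Smc4, the core ATPase of condensin, which was already abundant in naïve cells, and which also rose without naïve replicate 4.

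**Figure D2:**
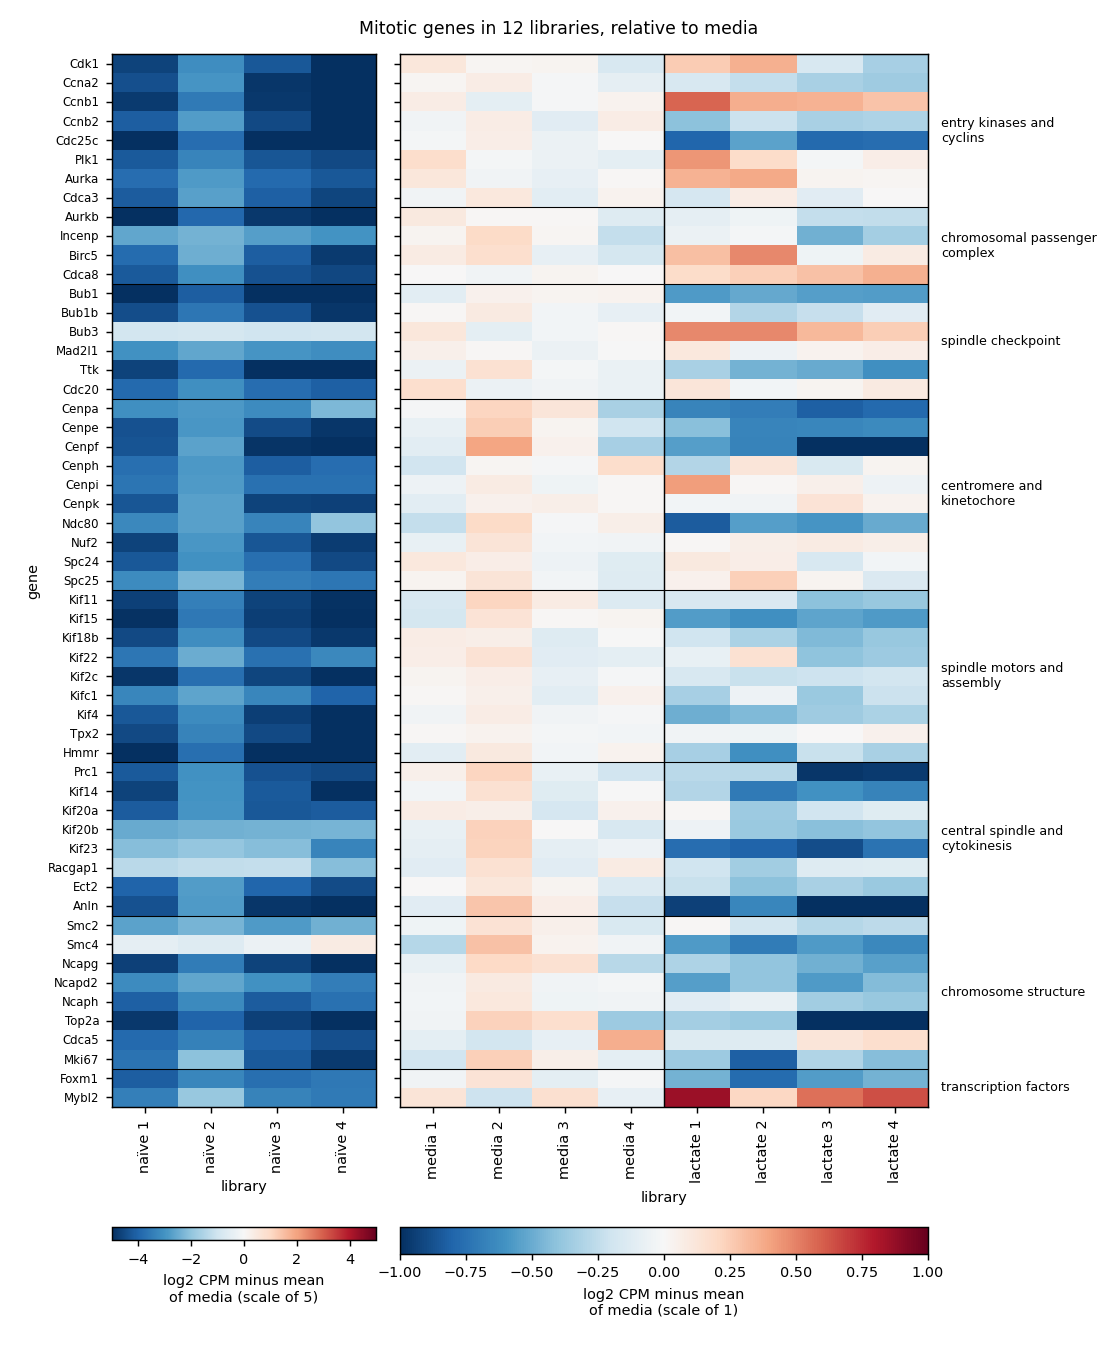
Log2 CPM of each of the 55 genes in the 12 libraries, minus the mean of the 4 media libraries, with the naïve libraries on a colour scale from -5 to 5 and the activated libraries on a scale from -1 to 1; lines separate the role groups. Naïve libraries are low except for Smc4, naïve replicate 2 is less low than the others, and most genes of the motor, cytokinesis and chromosome groups are below media in the lactate libraries.

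Lactate against media gave small differences by comparison, mostly downward. The fitted change was negative for 41 of the 55 genes and positive for 14 (12 to 17 over the alternatives), with a median log2 fold change of -0.22 against -0.0016 over all genes tested. With all 12 libraries in the fit, 1 gene rose (Bub3) and 2 fell (Cenpa and Foxm1), where 13.9% of all genes were called higher and 11.1% lower. The 4 lactate libraries nevertheless lay below all 4 media libraries in 26 of the 55 genes and above them in 4, where 21.5% and 23.2% of all genes did so. In that fit the 3 groups share the estimate of the spread, and the members varied more among naïve libraries (median coefficient of variation 49.6%, and 17.9% without replicate 2) than among media (7.32%) or lactate libraries (8.91%).

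The number of calls differed with the libraries that were fitted. When media and lactate were fitted alone, 4 members rose (Ccnb1, Cdca8, Bub3 and Mybl2) and 20 fell, where 19.8% and 17.2% of all 12460 genes tested were called. The 20 that fell there were Ccnb2, Cdc25c, Bub1, Ttk, Cenpa, Cenpe, Cenpf, Ndc80, Kif15, Kif18b, Kif4, Hmmr, Kif14, Kif23, Ect2, Anln, Smc4, Ncapg, Ncapd2 and Foxm1. Without naïve replicate 2 in the fit, 2 rose and 9 fell, where 13.5% and 11.5% of all 13430 genes were called, and without naïve replicate 4, 1 rose and 6 fell, where 18.7% and 16.8% of all 13627 genes were called. The donor as a block pairs the 3 donors present in both groups. With it, no member was called in the fit of 12 libraries, where 625 of all 13767 genes were called higher and 367 lower. When media and lactate were fitted alone with that block, 15 members fell and none rose. Of the members, 6 were higher there at an unadjusted p under 0.05, a count not made over all genes. In that fit 1941 of all 12460 genes were called higher and 1713 lower. Behind the count of 0 in edgeR, 3 members had an unadjusted p under 0.05 with the donor block, against 13 without it. Over all 13767 genes the count without the block was 6639, and with the block it was not made. With the donor block the adjusted p was 0.028 for Bub3, 0.087 for Cenpa and 0.093 for Foxm1. Without a block, DESeq2 and limma voom each called 6 members. Of all 13767 genes, DESeq2 called 2244 higher and 2307 lower, and limma voom 2008 and 1477. The labels number the libraries 1 to 9 (the low numbers) and 16 to 26 (the high numbers) and do not say what the numbers stand for. The direction was the same within donors and within each range of numbers: the median log2 difference of the members was -0.14, -0.19 and -0.23 in the 3 donor pairs, -0.20 among the low numbers and -0.24 among the high numbers. In all 3 donor pairs 33 members (60%) were lower with lactate and 9 (16.4%) higher, against 32.8% and 35.4% of all genes. A difference in the lactate effect between low and high numbers was not detected for any member (0 of 55 at an unadjusted p under 0.05, 251 of 13767 over all genes; edgeR interaction term, with a separate term for the naïve libraries that was added after the data were seen), but the high numbers held 1 media and 2 lactate libraries, which leaves such a test little precision.

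**Figure D3:**
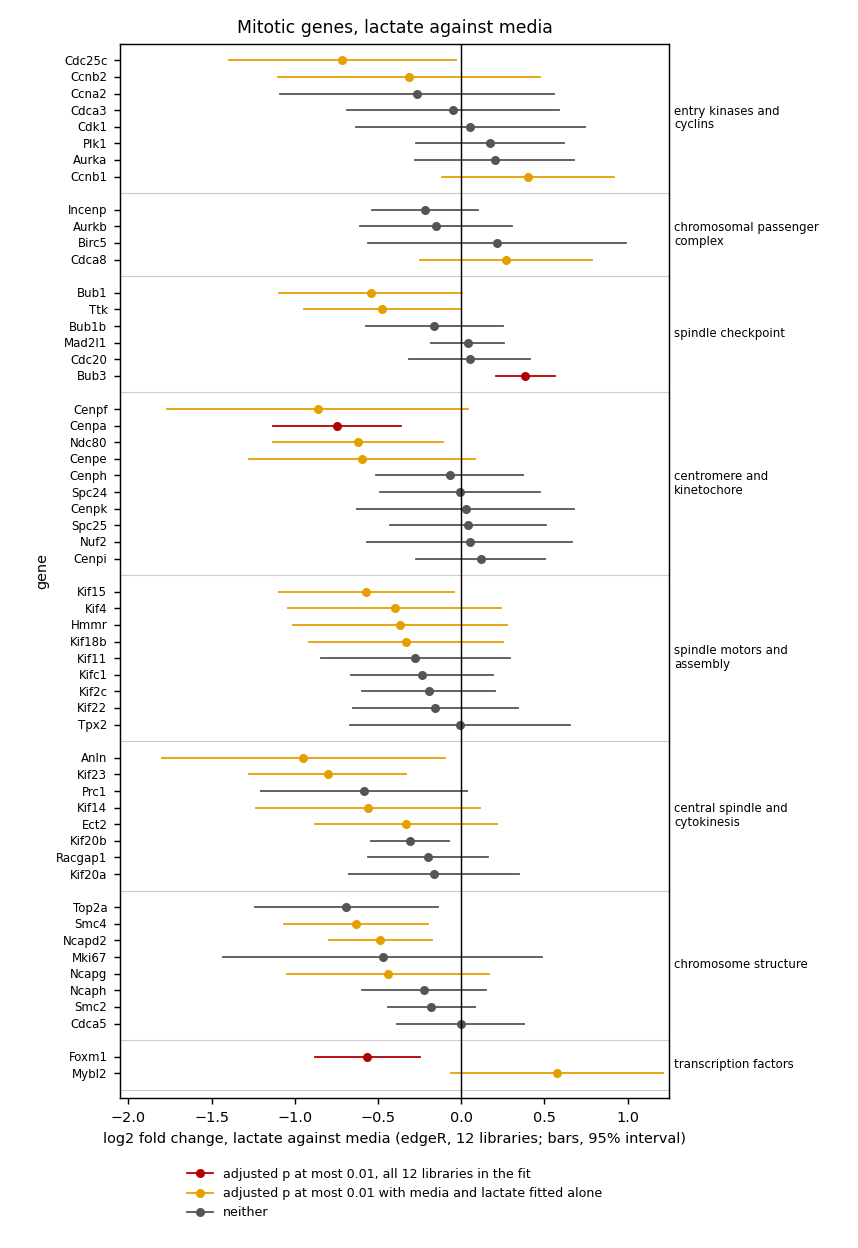
Log2 fold change of lactate against media for each gene, with the 95% interval of the fit of 12 libraries, by role group; red marks the 3 genes called in that fit and orange the 21 others called when media and lactate were fitted alone. All 9 motor and assembly genes, all 8 cytokinesis genes and all 8 chromosome structure genes lie at or left of 0, of which Tpx2, Cdca5 and Smc2 turned positive under some alternatives.

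The role groups differed in their medians for lactate against media, described here with no test of the groups. The entry kinases and cyclins (median 0.0021), the chromosomal passenger complex (0.031), the spindle checkpoint (-0.061) and the centromere and kinetochore genes (-0.038) were spread around 0. The spindle motors and assembly factors (-0.28), the genes of the central spindle and cytokinesis (-0.45) and those of chromosome structure (-0.46) were negative for every member, though Tpx2, Cdca5 and Smc2 turned positive under some alternatives (Smc2 with length and GC correction). The estimates of the pair of transcription factors had opposite signs. The role groups also differed in exon length. No entry or passenger gene was longer than the median member (5177 bases), and every cytokinesis gene but Kif20a was. The centromere and kinetochore genes, spread around 0, held both shorter and longer genes. Role and exon length were not separated, and which of them the medians follow was not tested. In the values that follow, the 4 libraries of a group are given in the order of their replicate numbers, as CPM scaled by TMM.

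Among the entry kinases and cyclins, all 8 rose on activation, by log2 fold changes from 3.60 for Aurka, the centrosomal mitotic kinase, to 4.91 for Cdc25c, the phosphatase that activates CDK1. Ccnb2, a B-type cyclin, had the highest level of the group per length in media, 425 ± 21.6 TPM (the length-scaled equivalent of CPM; SD, n = 4), and 312 ± 20.9 TPM with lactate. Its CPM were 10.8, 27.3, 8.14 and 4.59 in naïve, 183, 198, 174 and 197 in media and 141, 162, 150.1 and 151 in lactate libraries. Every lactate library lay below every media library, with a log2 fold change of -0.31 (SE 0.36) that did not pass in the fit of 12 libraries (edgeR, adjusted p = 0.53).

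Cdc25c had the largest change of the group with lactate. It read 1.41, 3.24, 1.08 and 0.392 CPM in naïve, 45.2, 48.1, 44.1 and 46.0 in media and 26.4, 31.7, 26.7 and 27.0 in lactate libraries. The groups did not overlap, and the log2 fold change with lactate was -0.71 (SE 0.32) (adjusted p = 0.09; 2.2e-04 in edgeR with media and lactate alone). An antisense gene overlaps 12.7% of its exons, and the strand setting of the counting was not stated. The same holds for Ccna2 (12.5%), Kif4 (15.1%), Prc1 (11.1%), Kif20a (29.3%) and Ncapg (13.4%). Whether reads of the antisense genes entered these counts is not known.

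Ccnb1, the other B-type cyclin, had an estimate of the opposite sign to Ccnb2. It read 92.6, 82.3, 87.5 and 90.3 CPM in media and 132, 114, 112 and 108 CPM in lactate libraries, with no overlap and a log2 fold change of 0.40 (SE 0.24). The adjusted p was 0.2 in edgeR with 12 libraries and 0.0034 with media and lactate alone. Ccnb1 was chosen here after its values were seen.

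Aurka read 6.48, 12.7, 6.20 and 4.76 CPM in naïve, 98.3, 88.8, 85.8 and 91.7 in media and 116, 118, 92.7 and 92.1 in lactate libraries, and its activated groups overlapped. The remaining members, Cdk1, Ccna2 (the S and G2 phase cyclin), Plk1 and Cdca3, had log2 fold changes with lactate of 0.054, -0.27, 0.17 and -0.05, none of which passed in either fit. For Cdk1 the 95% interval ran from -0.64 to 0.74, so that a change of that size in either direction was not detectable.

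The 4 genes of the chromosomal passenger complex, the kinase module that corrects wrong attachments, all rose on activation. Aurkb, its kinase, read 6.76, 14.3, 7.71 and 5.49 CPM in naïve, 231, 218, 218 and 198 in media and 203, 209, 183 and 182 in lactate libraries, a 25.3-fold rise from naïve to media. The activated groups overlapped, with a log2 fold change of -0.15 (SE 0.21). Incenp, the scaffold of the complex, had the smallest rise of the group, 6.37-fold, and read 47.1, 55.2, 43.0 and 35.8 CPM in naïve libraries. It read 293, 328, 290.1 and 243 CPM in media and 276, 283, 205 and 226 CPM in lactate libraries, which overlapped. Cdca8, the subunit borealin, was higher in every lactate library (192, 199, 207 and 215 CPM) than in any media library (169.7, 165, 172 and 169 CPM), from 9.19, 20.2, 8.19 and 7.28 CPM in naïve libraries. Its log2 fold change with lactate was 0.27 (SE 0.24), with an adjusted p of 0.4 in edgeR with 12 libraries and 0.0073 with media and lactate alone. Birc5, the subunit survivin, changed by 0.21 (SE 0.36) and overlapped between the groups.

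Within the spindle checkpoint, Bub3 and Bub1, which bind each other at kinetochores, had estimates of opposite sign with lactate, of which only that of Bub3 passed in the fit of 12 libraries. Bub3 (chr7:131560222-131571895, plus strand, GRCm38, all coordinates of genes from GENCODE M21) read 81.0, 85.1, 78.2 and 81.8 CPM in naïve libraries, the smallest coefficient of variation of any member among naïve libraries. It rose to 167, 144, 151 and 156 CPM in media and to 216, 216, 193 and 184 CPM in lactate libraries. Both steps were without overlap, and its activation was the smallest of the checkpoint genes at 1.90-fold. The lactate effect was a log2 fold change of 0.38 (SE 0.082), or 1.30-fold (edgeR, adjusted p = 0.0029, from 1.9e-04 to 0.028 over 27 alternatives; exact permutation p = 0.0286, two-sided, the smallest that 70 arrangements allow).

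Bub1, the kinase that marks centromeres, read 4.51, 10.9, 5.50 and 2.91 CPM in naïve, 178, 198, 195 and 196 in media and 129, 135, 131 and 130.3 in lactate libraries, and had the steepest activation of all members, 32.3-fold. The 4 lactate libraries lay close together, and all of them below the media libraries. The log2 fold change with lactate was -0.55 (SE 0.25), with an adjusted p of 0.11 in edgeR with 12 libraries and 2.2e-04 with media and lactate alone. Cdc20, the activator of the anaphase-promoting complex, was the most abundant of the group per length (265 ± 27.1 TPM in media). It read 9.69, 17.1, 10.2 and 8.40 CPM in naïve, 159, 137, 139 and 135 in media and 154, 139.6, 145 and 152 in lactate libraries, which overlapped (log2 fold change 0.05 (SE 0.17), a sign that a correction for gene length and GC content turned to -0.060). Bub1b and Mad2l1, further checkpoint proteins, also overlapped, at -0.16 and 0.039, and the checkpoint kinase Ttk was lower in every lactate library at -0.48 (SE 0.22).

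At the centromere, Cenpa, the histone H3 variant that marks it (chr5:30666777-30674830, plus strand), had the smallest adjusted p among the members that fell in the fit of 12 libraries. It read 49.99, 57.1, 48.1 and 88.1 CPM in naïve, 418, 490.2, 458 and 338 in media and 267, 261, 240.3 and 246 in lactate libraries. No lactate library reached the level of any media library. The log2 fold change was -0.75 (SE 0.18), to 0.595 of the media level (edgeR, adjusted p = 0.0053, from 2.0e-04 to 0.15 over 27 alternatives; exact permutation p = 0.0286). Unlike most members, its highest naïve library was replicate 4.

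Cenpf, a large kinetochore protein, read 9.69, 30.3, 6.41 and 5.71 CPM in naïve, 179, 253, 198 and 153 in media and 131, 121, 94.0 and 84.0 in lactate libraries, with no overlap after activation and a log2 fold change of -0.86 (SE 0.42) (adjusted p = 0.12). Ndc80, which binds microtubules directly, read 11.2, 15.9, 10.6 and 26.8, 88.5, 119, 103 and 109 and 58.6, 71.2, 69.4 and 73.4 CPM in the same order of groups, again with every lactate library below the media libraries. Its log2 fold change of -0.62 (SE 0.24) missed the threshold at an adjusted p of 0.052. Cenpe, a kinetochore motor, was also lower in every lactate library (-0.60 (SE 0.31)). The partners of Ndc80 in the same complex did not follow it: Nuf2 changed by 0.052, Spc24 by -0.0056 and Spc25 by 0.042, all with overlap, and the difference between subunits was not tested. Cenph, Cenpi and Cenpk, of the inner kinetochore, changed by -0.07, 0.12 and 0.027 with overlap.

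Of the 9 spindle motors and assembly factors, 5 were lower in every lactate library than in any media library: Kif15, Kif18b, Kif2c, Kif4 and Hmmr. Kif15, a motor that helps keep the spindle bipolar, had the largest change of the group. It read 7.44, 19.2, 8.84 and 6.95 CPM in naïve, 203, 253, 232 and 234 in media and 156, 150.2, 159 and 156 in lactate libraries, a log2 fold change of -0.57 (SE 0.24) (adjusted p = 0.081, and 3.4e-04 in edgeR with media and lactate alone). Tpx2, which activates Aurora A on the spindle, had the highest level per length of the group and was the same to within the spread: 12.8, 28.8, 13.0 and 6.11 CPM in naïve, 297, 301, 290.4 and 289 in media and 288, 286, 296 and 303 in lactate libraries. Kif22, a motor on chromosome arms, read 10.7, 23.6, 9.81 and 14.2, 137, 144, 121 and 123 and 125, 146, 99.0 and 102 CPM in the same order of groups, and the activated groups overlapped. Kif11, the main motor of spindle bipolarity, and Kifc1, a motor of spindle poles, changed by -0.28 (SE 0.26) and -0.24 (SE 0.20), with overlap.

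All 8 genes of the central spindle and cytokinesis were lower on average with lactate, and in 6 of them the groups did not overlap (Prc1, Kif14, Kif23, Racgap1, Ect2 and Anln). Anln, the ring protein anillin (chr9:22332012-22389188, minus strand), had the largest change of any member. Its CPM were 5.35, 15.7, 3.77 and 2.46 in naïve, 103, 134, 116 and 94.4 in media and 58.1, 70.4, 52.5 and 50.6 in lactate libraries, so that lactate cells held 0.518 of the media level. The log2 fold change was -0.95 (SE 0.39), with an adjusted p of 0.072 in edgeR with 12 libraries and 3.9e-04 with media and lactate alone.

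Racgap1 and Kif23 form the centralspindlin complex, and Ect2 is the exchange factor it recruits. Racgap1 was both the most abundant of the group per length (138 ± 11.8 TPM in media) and the least induced, from 110.1, 121, 124 and 65.2 CPM in naïve to 261, 313, 260.1 and 298 in media. With lactate it read 246, 222, 258 and 259.7 CPM, a log2 fold change of -0.20 (SE 0.17). Its partner Kif23 fell from 149, 185, 149 and 153 CPM in media to 93.4, 90.8, 85.5 and 94.8 CPM in lactate libraries when those were fitted alone (-0.80 (SE 0.22) in the fit of 12 libraries, adjusted p = 0.011, just above the threshold of 0.01). Ect2 changed by -0.33 (SE 0.25). Prc1, the bundler of the central spindle, changed by -0.59 (SE 0.29), with a log2 difference of -0.34 between libraries with low numbers and -0.77 between those with high numbers. Kif14, Kif20a and Kif20b, motors of the midzone, changed by -0.56, -0.16 and -0.31.

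Among the genes of chromosome structure, Smc4 (chr3:69004738-69034623, plus strand) differed from every other member in its naïve level. It read 603, 528, 686 and 1105 CPM in naïve, 683, 1019, 855 and 811 in media and 563, 514, 564 and 532 in lactate libraries. Naïve and media overlapped (log2 fold change 0.21 (SE 0.20), adjusted p = 0.38), and the call depended on single naïve libraries: without replicate 2 the estimate was -0.0074 on the log2 scale, and without replicate 4, the highest, it was 0.47 and passed (edgeR, adjusted p = 0.0064). Lactate libraries were below all media libraries, at -0.63 (SE 0.20) (adjusted p = 0.023, and 0.0012 in edgeR with media and lactate alone). Its condensin partner Smc2 rose 5.84-fold on activation and changed by -0.18 (SE 0.12) with lactate.

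Top2a, the topoisomerase that untangles sister chromatids, was the most abundant member in media per length (578 ± 115 TPM), next to Smc4 at 560.4 ± 95.3 TPM, and these 2 levels differed by less than their spread. It read 52.1, 91.4, 58.4 and 39.7 CPM in naïve, 1442, 1736, 1663 and 1149 in media and 1166, 1142, 701 and 702 in lactate libraries. Lactate replicates 3 and 4 and media replicate 4, all with high library numbers, were the low ones of their groups, and the log2 difference was -0.48 among low numbers and -0.71 among high numbers. The log2 fold change was -0.69 (SE 0.25) (adjusted p = 0.046). The condensin subunits Ncapd2, Ncapg and Ncaph were lower in every lactate library, at -0.49, -0.44 and -0.22, as was the proliferation antigen Mki67 at -0.47 (SE 0.44). Cdca5, the protein sororin that protects cohesion, was level between the groups at -0.0018 (SE 0.18).

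Of the transcription factors, Foxm1 passed in the fit of 12 libraries and Mybl2 did not, and the difference between them was not tested. Foxm1 (chr6:128362967-128376146, plus strand) read 11.0, 19.8, 13.8 and 16.0 CPM in naïve, 186, 209, 179 and 189 in media and 137, 112, 129.7 and 138 in lactate libraries, and fell with lactate to 0.676 of the media level (log2 fold change -0.56 (SE 0.14); edgeR, adjusted p = 0.0084, from 3.9e-04 to 0.14 over 27 alternatives; exact permutation p = 0.0286). Mybl2, the gene of B-MYB (chr2:163054687-163084688, plus strand), read 4.11, 11.8, 4.26 and 3.81 CPM in naïve, 47.9, 37.8, 48.7 and 41.3 in media and 79.1, 50.5, 64.0 and 68.2 in lactate libraries. Every lactate library lay above every media library, lactate replicate 2 only narrowly, with a log2 fold change of 0.58 (SE 0.29) (adjusted p = 0.14 in edgeR with 12 libraries and 0.0061 with media and lactate alone). In the donor pair of media replicate 3 and lactate replicate 2 the difference was 0.052, against 0.72 and 0.72 in the other pairs.

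**Figure D4:**
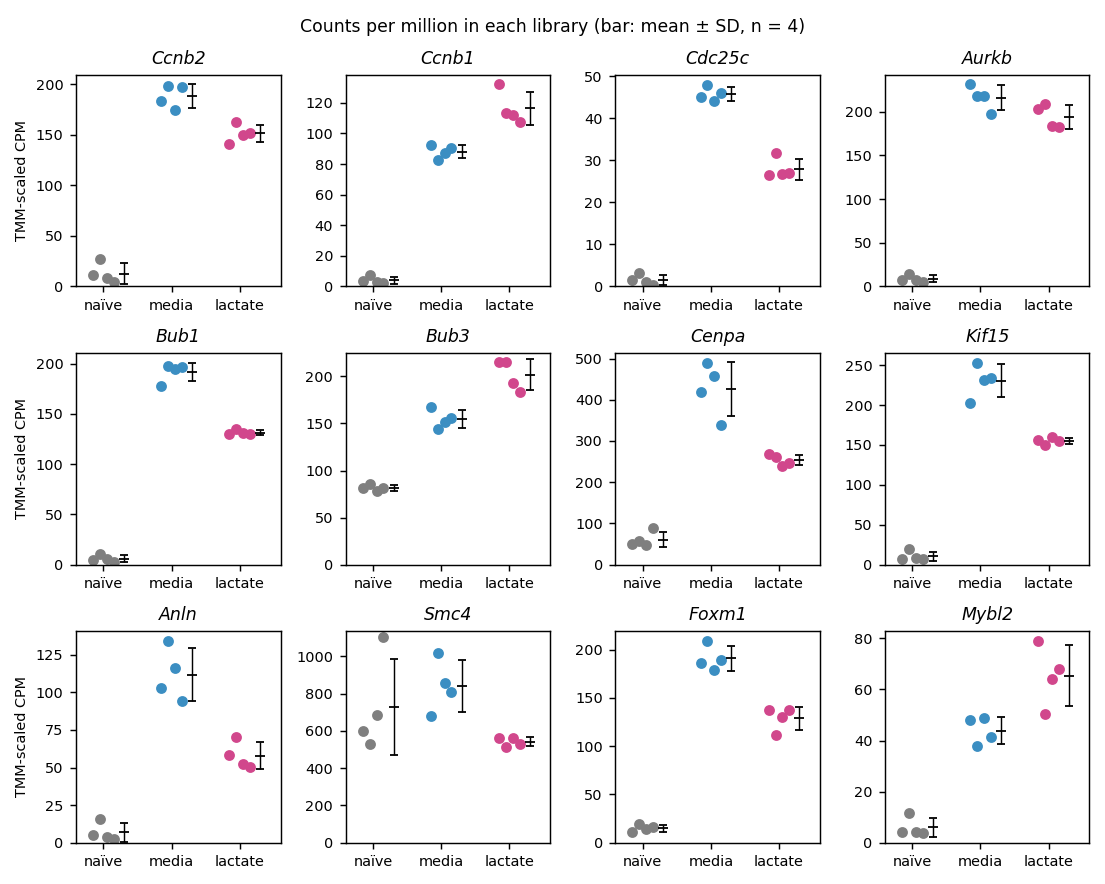
TMM-scaled CPM of 12 of the genes in each library, on linear axes from 0, with the mean and SD of each group (n = 4). Lactate libraries lie above all media libraries for Ccnb1, Bub3 and Mybl2 and below them for Ccnb2, Cdc25c, Bub1, Cenpa, Kif15, Anln, Smc4 and Foxm1, and overlap them for Aurkb.

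Longer genes had the lower values with lactate. Across the 55 genes the Spearman correlation of the log2 fold change of lactate against media with exon length was -0.55, and across all 13767 genes it was -0.16; genes are not independent replicates and share the 12 libraries. The 28 members with an exon length up to the median of 5177 bases had a median of -0.11 and the 27 longer ones -0.47. Exon length also differed between the role groups, and role and length were not separated. For GC content the correlations were 0.25 and 0.11. With length and GC content corrected in edgeR's fit of 12 libraries, Bub3 was still called at 0.51 (adjusted p = 0.0010), while Cenpa (-0.66, adjusted p = 0.015) and Foxm1 (-0.51, adjusted p = 0.015) missed the threshold.

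**Figure D5:**
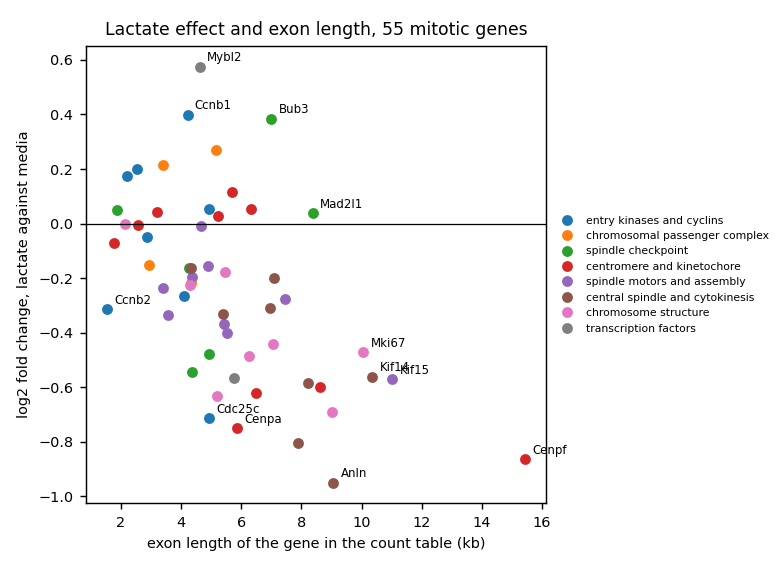
Log2 fold change of lactate against media for the 55 genes by exon length in kilobases, coloured by role group. Values fall from left to right (Spearman -0.55), with Cenpf at the longest end and Bub3 and Mad2l1 as long genes that are not below 0.

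Genes of the same pathways outside the 55 were taken from fixed lists, and the 2 with the largest change among those called are named. Of 58 other mitotic genes tested, 54 rose from naïve to media, and with lactate 2 (3.45%) rose and 6 (10.3%) fell, with a median of -0.26, against 13.9% and 11.1% of all genes. Cdc25b, a further CDK1-activating phosphatase, fell from 234 ± 56.2 to 114 ± 10.1 CPM (SD, n = 4; log2 fold change -1.04 (SE 0.18), edgeR adjusted p = 8.4e-04). Trip13, which disassembles the checkpoint complex, rose from 36.6 ± 3.75 to 68.1 ± 7.54 CPM (0.90 (SE 0.12)). Of 27 genes of the anaphase-promoting complex and cohesin, 3 (11.1%) rose with lactate and none fell (median 0.0025), among them Anapc15 (0.45 (SE 0.093)) and Cdc16 (0.40 (SE 0.086)). At an unadjusted p under 0.05 in edgeR there were 11 of these genes, where 6639 of all 13767 were counted.

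Of 25 genes of DREAM, MuvB and their partners, 3 (12%) rose and 4 (16%) fell with lactate, shares near those over all genes. Cdkn1b, the CDK inhibitor p27, fell from 265 ± 92.6 to 86.3 ± 22.2 CPM (-1.62 (SE 0.24)), and Tfdp1, the dimer partner of the E2F factors, rose from 123 ± 19.1 to 269 ± 32.6 CPM (1.13 (SE 0.14)). DNA replication genes lay on the other side of 0 from the mitotic genes. All 26 rose on activation, and with lactate 5 (19.2%, against 13.9% of all genes) rose and none fell, 24 were positive and 19 (73.1%, against 23.2% of all genes) were above media in every library, with a median of 0.32. Fen1, the flap nuclease of lagging strand synthesis, rose from 78.2 ± 7.66 to 139 ± 2.88 CPM (0.83 (SE 0.12)), and Rfc4, a subunit of the clamp loader, changed by 0.57 (SE 0.14).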

How the data were processed

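RNA-seq libraries (stranded mRNA kit) were made from 12 samples of mouse CD8+ T cells. Per the methods and the submitters' processing notes, the authors converted base calls with bcl2fastq 2.20.0.422, aligned reads to GRCm38 with STAR 2.7.5b, dropped PCR duplicates and used featureCounts on reads with a single mapping position in exons. The deposited table holds raw counts per gene and the gene's exon length, which for all 55 genes equals the exon union of GENCODE M21. Whether the counting used strand is not given in the sources used here.

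Here R 4.3.3 with edgeR 4.0.16 was used. Genes with at least 1 CPM in 3 libraries were kept, TMM gave the scaling, and all libraries entered 1 quasi-likelihood fit with a term per group. Tests were two-sided at an adjusted p of 0.01 over all genes. Standard errors are the log2 fold change over the square root of F. TPM used the deposited lengths. The exact permutation test used log2 CPM. Its p is 0.0286 whenever the 2 groups do not overlap, so it adds nothing to that. For lactate against media 44.7% of all genes did not overlap.

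Groups, replicates and donor tags came from the labels, and a tag was taken as a different mouse in low and high library numbers. Deviations from the group means correlated across genes at r = 0.374, 0.211 and 0.553 between libraries of the same donor. Libraries sharing a title number gave 0.374, 0.297, 0.0038 and 0.553. The pairs at 0.374 and 0.553 are the same in both sets. The pair at 0.297 joins different donors, and no other pairs were compared, so these values cannot decide whether the donor tags were read rightly. The labels do not say which naïve library came from which mouse, and p-values measure the spread between these libraries. Members, lists and motifs were chosen with earlier results of these data known. Genes named in each role group are the most abundant in media, the most changed with lactate and the least changed on activation, besides all genes called with lactate and all not called on activation; others are named within counts. Alternatives used DESeq2 1.42.0, limma voom (limma 3.58.1), other scalings and filters, blocks, single libraries left out and, added after the data were seen, length and GC corrections and combinations with the donor block. The functions were tested on simulated data.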

Additional observations from a re-analysis of the deposited data

Results flagged for a closer look

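Of 165 groups of 4 libraries (55 genes in 3 groups), 13 (7.88%) held a library whose gap to its nearest neighbour was large for the range of its group by Dixon's criterion, where chance gives about 1 in 20. The gap is given as a share of the range, both taken on log2 CPM, while the levels printed are CPM. In naïve replicate 2, the highest library was far from the others for Cenpi (5.05 CPM, next 2.82, share 0.926), Kif20a (19.0 CPM, next 8.12, share 0.941) and Mybl2 (11.8 CPM, next 4.26, share 0.902), and Kif23 was low in naïve replicate 4 (16.0 CPM, next 35.9, share 0.837).

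Among media libraries, replicate 2 was high for Kif23 (185 CPM, next 153, share 0.881), Ncapd2 (758 CPM, next 705, share 0.842) and Ncaph (163 CPM, next 148, share 0.900). Replicate 1 was low for Bub1 (178 CPM, next 195, share 0.867) and high for Cdc20 (159 CPM, next 139, share 0.858), and replicate 3 was low for Kif20a (129 CPM, next 149, share 0.870). Among lactate libraries, replicate 1 was high for Cenpe (181 CPM, next 155, share 0.911) and Kif20b (119.9 CPM, next 95.9, share 0.886), and replicate 2 was high for Cdc25c (31.7 CPM, next 27.0, share 0.888). These libraries were kept, and no cause was tested.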

How the results depend on the processing

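The rise from naïve to either activated group held for 53 to 55 members in the alternatives run for it, which did not include the donor block, since naïve libraries carry no donor. The median of the members for lactate against media stayed negative, from -0.28 to -0.15 over the alternatives. The count of members called between lactate and media was not stable, and the counts over all genes also differed between fits. Of all genes, 1917 rose and 1534 fell in the fit of 12 libraries (13767 tested). With media and lactate alone 2462 rose and 2141 fell (12460 tested), and 2676 and 1934 with length and GC correction added (13752 tested). Scaling by total counts gave 1702 higher and 1728 lower, and the donor block 625 and 367 (13767 tested). Of members higher, 1 in the report, there were 4 with media and lactate alone, 4 with length and GC correction added to that, 0 with scaling by total counts, 0 with the donor block, 0 with the donor block and the length and GC correction, 0 with media and lactate alone and the donor block, and 0 to 2 with single libraries left out. Of members lower, 2 in the report, there were 5 with DESeq2, 5 with limma voom, 7 at an adjusted p of 0.05, 20 with media and lactate alone, 18 with length and GC correction added to that, 15 with the donor block added to it, 0 with length and GC correction, 0 with that and the donor block, and 0 to 9 with single libraries left out. The high counts came without naïve replicate 2 (9) and naïve replicate 4 (6), and the count was 0 without any single lactate replicate or without media replicate 1, 2 or 3, and 1 without media replicate 4. Members higher were 2 without naïve replicate 2 and 0 without media replicate 2 or 3. With single libraries left out, 1338 to 2552 of all genes were called higher and 914 to 2293 lower. Length and GC correction in the fit of 12 libraries gave 1849 higher and 1229 lower over all genes, and 408 and 220 with the donor block added (13752 tested). DESeq2 gave 2244 and 2307, and limma voom 2008 and 1477 (13767 tested). No count over all genes was made at an adjusted p of 0.05. The fits differ in their libraries, terms and residual degrees of freedom, and the cause of the differing counts was not tested.

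As a replicate block, the title number left 1 member lower, where 1435 of all 13767 genes were called lower, and the donor left 0 lower and 0 higher. The donor pairs by the tags of the labels within each range of library numbers, and the title number does not for every pair. Smc4 was called lower in lactate against naïve without naïve replicate 2, so that this count ran from 0 to 1.

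Signs of estimates near 0 turned for several genes, among them Cdca5 (up to 0.13 for lactate against media) and Smc2 (up to 0.042). For Cdc20, lactate against media was -0.060 with length and GC correction, -0.045 with the donor block added and -0.060 with media and lactate alone and the correction. For Smc4, media against naïve ran from -0.0074, without naïve replicate 2, to 0.47, without naïve replicate 4. For Tpx2, lactate against media was 8.3e-04 with the title block, 0.083 with a term for low or high library numbers, 0.023 with length and GC correction and 0.023 with the donor block added, 0.0044 with media and lactate alone and the donor block, 0.022 with media and lactate alone and the correction, and from -0.026 to 0.0056 with single libraries left out. The median 95% interval of a member reached 0.51 on the log2 scale to either side, so smaller changes with lactate were mostly not detectable in the fit of 12 libraries.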
